A study of Mus musculus with 8 samples.

Results

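The deep class of acinar cells is the group of cells that the authors annotated as the second of their acinar clusters in a droplet-based scRNA-seq analysis of mouse islets. Its members are all cells that carry this annotation in the deposited table. There are 200 of them among 6959 cells, 86 of 3776 in the library from vehicle-treated mice and 114 of 3183 in the library from FAKi-treated mice. The mice were wild-type and 6 to 12 weeks old at the start. The study's methods list both C57bl/6 and CD-1 wild-type mice without naming the strain of this experiment. Its reporting summary gives equal numbers of both sexes outside the diabetic studies. Mice received vehicle or FAKi (PF562271, an inhibitor of focal adhesion kinase) by oral gavage for 3 weeks, with 2 daily doses of 50 mg/kg each, and 10 days after the last of them the islets were isolated. Islets of 5 mice were pooled per condition and picked by hand to leave exocrine tissue behind, so the acinar cells described here were carried along with islets and are not a sample of the whole gland. There is 1 library per condition, deposited as 4 sequencing lanes each. Nothing below is therefore a test between conditions: comparisons are ratios between 2 libraries, and their 95% intervals cover counting error only.

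Acinar cells make and store the digestive enzymes of the pancreas as inactive zymogens. The enzymes are threaded into the endoplasmic reticulum (ER), folded there, packed into zymogen granules and released when cholecystokinin or acetylcholine reaches the cell. Transcription of the enzyme genes depends on PTF1, a complex of PTF1A, an E-protein and RBPJL, together with NR5A2 and MIST1 (*Bhlha15*). Acinar cells are rich in RNases and break easily, so acinar transcripts are also found free in the droplets of other cell types. Fewer transcripts per cell and fewer intact cells cannot be told apart when counts are summed over a class.

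The class holds 1288559 UMIs (unique molecular identifiers, each taken as 1 transcript) with vehicle and 1507509 with FAKi, and paired values below give the vehicle library first. Its cells ranged from 1127 to 135194 UMIs with vehicle (median 7931) and from 1594 to 117952 with FAKi (median 7280.5). The number of detected genes per cell had a median of 740.5 and 678.5. UMIs and detected genes went together over cells, with a Spearman correlation of 0.88 over 86 vehicle cells and 0.92 over 114 FAKi cells. Both are measures of a cell's depth. The deepest cell held 10.5% of the UMIs of the class with vehicle and 7.82% with FAKi. No cell was called a doublet by Scrublet. The libraries shared 4 cell barcodes, of which 1 was in the class in both.

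Not all of the 200 cells were distinct in their counts. Each pair of cells within a library was compared by a chi-square over the genes with an expected count of at least 5 in both cells, divided by its degrees of freedom, so that 1 is the value of sampling noise. The median was 21.6 over 3655 vehicle pairs and 23.2 over 6441 FAKi pairs. In 18 vehicle and 49 FAKi pairs it was under 1.5. The vehicle cells of 15196 and 15416 UMIs had 1.02 over 114 genes, those of 43407 and 31291 UMIs had 1.35 over 134 genes, and the FAKi cells of 17663 and 15348 UMIs had 1.12 over 94 genes. Their barcodes were unlike each other, with at least 5 differing bases in each such pair. Linked together, these pairs placed 29 of 86 vehicle cells in 12 groups of up to 5 and 37 of 114 FAKi cells in 9 groups of up to 12. The groups held 23.5% and 12.9% of the UMIs. Pericytes, a class of 201 cells, had 6 such pairs of 9174 and 5 of 1875. Counting each group once, by its deepest cell, left 69 vehicle and 86 FAKi cells, and counts of cells with much or little *Ctrc* or *Clps* and of cycling cells are also given on that basis. Whether a group is 1 cell read under several barcodes was not tested.

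The transcriptome of the class was narrow. A single gene, *Ctrb1*, which encodes chymotrypsinogen B, took 13.4% of all UMIs with vehicle and 14.5% with FAKi. The 10 most abundant genes took 60.7% and 60.1%, and the 20 most abundant took 80.6% and 80.9%. After *Ctrb1* came *Prss2*, a trypsinogen (7.70% and 7.31%), *Clps*, which encodes colipase, the cofactor of pancreatic lipase (7.39% and 7.28%), *Try4*, another trypsinogen (7.17% and 6.95%), and *Pnlip*, pancreatic lipase (5.13% and 5.55%). The trypsinogen genes are near-identical in sequence, so the split of UMIs among *Prss2*, *Try4*, *Try5*, *Prss3*, *Gm10334* and *2210010C04Rik* is uncertain. Together, the 31 measured genes of the digestive enzyme list held 71.4% and 70.7% of the UMIs of the class. Endothelial and immune cells (the classes of endothelial cells, B cells, T cells and macrophages), which should make none of these, had 0.502% and 1.26%. Their mix differed between the libraries, with 543 and 269 endothelial cells and 129 and 55 macrophages. T cells numbered 168 and 28, and B cells 113 and 9. Ratios of their summed counts therefore mix composition with level. Within single cells the enzyme share had a median of 70.0% with vehicle (quartiles 66.2 and 73.6%, range 42.2 to 78.9%) and 70.6% with FAKi (quartiles 65.4 and 73.3%, range 52.1 to 80.1%). It had a Spearman correlation with the number of detected genes of only -0.13 and -0.20.

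All 6 genes given as markers of the class were present at high levels. The authors named their clusters by known marker genes and references, so these levels describe the acinar label and do not test it. Levels are in CPM, counts of a gene's UMIs scaled to the total of the class, and are not scaled to gene length because 3′ counts do not depend on it. *Prss2* stood at 76971 CPM with vehicle and 73080 with FAKi. *Clps* stood at 73876 and 72762 CPM. *Cpa1*, carboxypeptidase A1, stood at 29973 and 28814 CPM. *Reg1*, a secreted protein of the regenerating family, stood at 28579 and 25645 CPM. *Rnase1*, the pancreatic ribonuclease, stood at 23377 and 19498 CPM. *Klk1*, tissue kallikrein, was the lowest of the 6 at 2937 and 2499 CPM. Each was found in every one of the 200 cells. No marker of endothelial or stromal cells reached 20 UMIs over the class, and of 20 immune markers 1 did.

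The class had at least 100 UMIs of 548 genes. Of these, 56 (10.2%) stood at least 4-fold above the highest of the 10 non-acinar classes in both libraries. The cells were clustered on these genes, so this is a description of the class and no test. Of the 31 digestive enzyme genes 25 were among the 56, and of 12 genes for zymogen granule proteins and enzyme inhibitors 8 were. By the mean log2 fold of both libraries *Reg1* stood furthest apart, 143-fold above pericytes with vehicle and 34.2-fold above macrophages with FAKi. *Reg2*, its close relative, was 75.1-fold and 52.6-fold above the next class, and reads may be split between members of the family. A single vehicle cell held 55.0% of the *Reg2* UMIs, and without the highest cell of each library the values were 34.5-fold and 49.2-fold. Among the inhibitors, *Spink1*, which blocks trypsin, was 163-fold and 18.8-fold above, and *Serpini2*, a serpin of the pancreas, was 109-fold and 20.7-fold above. The granule proteins *Sycn* (syncollin), *Gp2* and *Cuzd1* were 94.6-, 100- and 102-fold above the next class with vehicle and 32.1-, 22.1- and 23.4-fold above it with FAKi.

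The fold was lower in the FAKi library for all 20 genes that stood furthest apart, and for 19 of the 20 without each gene's highest cell, *Reg2* being the exception. *Ctrb1* shows the levels behind this, at 134183 and 144792 CPM in the class. In endothelial and immune cells it stood at 760.6 CPM with vehicle and 1960 CPM with FAKi.

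Genes that are not digestive enzymes were also found among the 56. *Aqp12*, an aquaporin of acinar cells, stood at 206 and 224 CPM, 47.9-fold and 36.7-fold above the next class. *Pdia2*, a protein disulfide isomerase of the exocrine pancreas, stood at 828 and 984 CPM, 72.5-fold and 23.3-fold above. *Cckar*, the receptor for cholecystokinin, had 110 UMIs with vehicle and 173 with FAKi, 24.3-fold and 10.7-fold above the next class. *Tff2*, a trefoil peptide, stood at 4666 and 4774 CPM. *Gal*, the neuropeptide galanin, stood at 228 and 247 CPM, 26.0-fold and 22.9-fold above the next class, and had a UMI in 79.1% and 63.2% of the cells. *Tmed6*, a cargo receptor of the early secretory pathway, was 6.40-fold and 5.64-fold above δ-cells, the next class in both libraries. Of the transcription factors, *Ptf1a* and *Rbpjl*, which encode parts of PTF1, stood apart at low levels. *Ptf1a* had 45 and 57 UMIs, 13.9-fold and 11.8-fold above the next class, and *Rbpjl* had 46 and 81 UMIs, 14.2-fold and 8.92-fold above it.

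**Figure D1:**
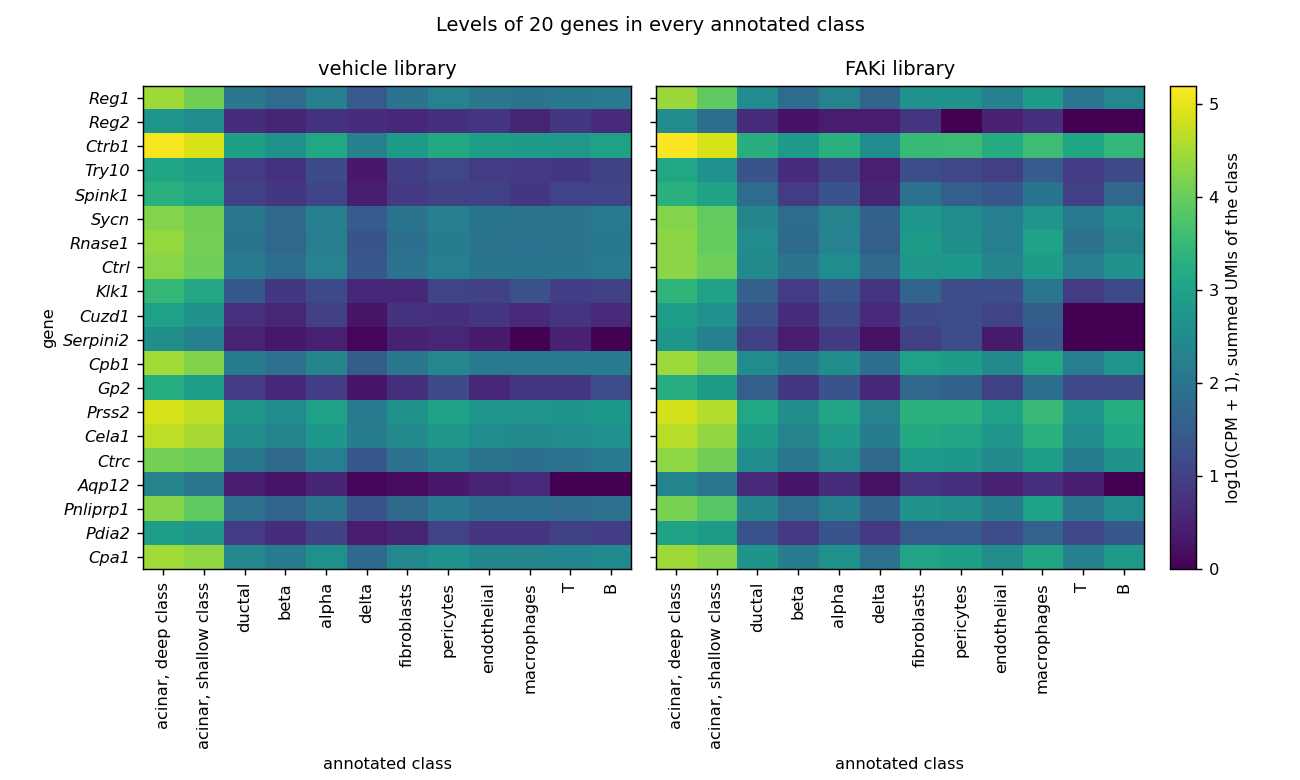
Colour gives log10(CPM + 1) of the 20 genes that stood furthest above the non-acinar classes (rows) in each of the 12 annotated classes (columns), for the vehicle library (left) and the FAKi library (right). Both acinar columns are bright for every gene, and acinar transcripts are also seen in the non-acinar columns, as for *Ctrb1* in macrophages, at 710 CPM with vehicle and 3835 CPM with FAKi.

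The promoters of these genes were searched for the words that PTF1 is known to read, an E-box (CACCTG or CAGCTG) bound by PTF1A with its E-protein and the word TGGGAA bound by RBPJL. Sequences were taken from RefSeq for GRCm38.p6 (mm10), as windows of 250 bases before to 50 bases after each start site, and both strands were searched. CACCTG was found in 15 of the 26 digestive enzyme promoters with an entry and in 22.6% of 27025 promoters. CAGCTG was found in 10 of 26 and in 18.3% of all. Related genes were each counted, and the amylase genes *Amy2a2*, *Amy2a3* and *Amy2a4* had this word at the same place, after the start. *Cpa1* and *Klk1b5* also had it only after the start. TGGGAA was found in 15 of 26 and in 28.3% of all. An E-box of either kind together with TGGGAA was found in 11 of the 26 and in 11.2% of all, and in 19 of the 42 promoters with an entry among the 56 genes above. Among the 8 granule and inhibitor promoters with an entry, 1 had both. CAAGGTCA, an extended binding word of NR5A2, was found in 2 of 26 and in 1.76% of all. A match describes the letters only and is no evidence of binding. The 250 bases before the start are shown for the most abundant gene, a marker of the class and the enzyme gene with the most E-boxes among the 3, with E-box and TGGGAA words in capitals. *Ctrb1* lies on the minus strand at chr8:111691011-111691260, with CAGCTG 205 bases before the start and, read on the other strand, TGGGAA at 194 bases. *Prss2* lies on the plus strand at chr6:41521526-41521775, with CACCTG at 169 and TGGGAA at 111 bases. *Cel*, carboxyl ester lipase, lies on the minus strand at chr2:28563404-28563653, with CACCTG at 170 and 65 bases, the same word on the other strand at 154 and 134 bases, and TGGGAA at 87 bases.
Ctrb1: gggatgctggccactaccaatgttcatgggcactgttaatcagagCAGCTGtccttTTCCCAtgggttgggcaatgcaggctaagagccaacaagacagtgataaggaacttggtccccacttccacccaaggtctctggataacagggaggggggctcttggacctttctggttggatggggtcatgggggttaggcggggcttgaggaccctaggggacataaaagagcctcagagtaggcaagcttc
Prss2: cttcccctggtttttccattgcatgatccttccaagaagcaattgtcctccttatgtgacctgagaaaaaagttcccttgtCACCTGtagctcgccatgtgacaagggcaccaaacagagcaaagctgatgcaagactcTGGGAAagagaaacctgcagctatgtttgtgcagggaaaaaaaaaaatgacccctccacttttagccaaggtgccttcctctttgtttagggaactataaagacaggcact
Cel: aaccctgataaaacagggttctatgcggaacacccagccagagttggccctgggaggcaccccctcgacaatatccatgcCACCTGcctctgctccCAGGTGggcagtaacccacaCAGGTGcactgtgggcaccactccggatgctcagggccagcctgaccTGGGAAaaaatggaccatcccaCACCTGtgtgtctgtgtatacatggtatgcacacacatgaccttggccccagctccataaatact

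Cells of the class were not alike in which enzymes they carried. Cells were thinned to 3000 UMIs each, which left out 9 vehicle and 20 FAKi cells that were shallower, and the variance over the mean (Fano factor) was taken for the 113 genes with a mean of at least 1 UMI. By the mean of both libraries *Clps* varied most, with a Fano factor of 112 over 77 vehicle cells and 67.0 over 94 FAKi cells, where sampling alone gives a value near 1. Over FAKi cells alone *Gm42418* was slightly higher. *Ctrb1* had 38.3 and 27.4, *Cela2a*, an elastase, 28.5 and 29.8, *Try5* 15.7 and 27.7, *Reg1* 13.7 and 29.7, and *Try4* 20.9 and 14.95. *Ins2* (60.5 and 28.8) and *Ins1* (27.4 and 13.7), whose reads may be split between the 2 insulin genes, *Malat1* (25.2 and 37.3), a nuclear RNA, and *Gm42418* (22.0 and 67.6), which overlaps ribosomal RNA sequence, completed the 10 highest. For *Malat1* 1 FAKi cell had 88 thinned UMIs and the next 15, and without the highest cell of each library its Fano factor was 15.8 and 4.33. The ranking by Fano factor depends on a gene's level. Divided by the mean count, the mean factor was 0.40 for *Clps* and 0.086 for *Ctrb1*, but 1.08 for *Gm42418* and 15.4 for *Malat1*. The insulin transcripts are also found in endothelial and immune cells, and their part in this spread was not tested.

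*Clps* made up 0.581 to 20.4% of the UMIs of a vehicle cell (median 5.88%) and 0.460 to 15.5% of those of a FAKi cell (median 4.60%). In the vehicle library 28 cells had under 4%, 28 had 4 to 8% and 30 had 8% or more. In the FAKi library 55 had under 4%, 15 had 4 to 8% and 44 had 8% or more, so that few FAKi cells lay in the middle. Cells of the groups with like counts were common at the low end, where they made up 16 of 28 vehicle and 32 of 55 FAKi cells, against 7 of 30 and 4 of 44 at the high end. Counting each group once gave 19, 24 and 26 vehicle cells and 30, 14 and 42 FAKi cells in the 3 ranges, and the median share was then 6.35% and 7.96%.

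A set of other enzymes went the opposite way to *Clps* over cells, in both libraries. Over 77 thinned vehicle and 94 thinned FAKi cells, the Spearman correlation with *Clps* was -0.83 and -0.72 for *Cela2a*, -0.75 and -0.83 for *Ctrl* (chymotrypsin-like protease), -0.67 and -0.78 for *Cel*, and -0.66 and -0.74 for *Cpa1*. It was positive for *Rnase1* (0.65 and 0.68), *Tff2* (0.49 and 0.55), *Pla2g1b*, the pancreatic phospholipase A2 (0.44 and 0.40), and *Rplp1*, a ribosomal protein (0.65 and 0.60). *Cel* and *Cpa1* went together at 0.81 in both libraries. Shares of 1 fixed total move against each other by construction, cells of 1 library share its free RNA, and the 35 genes compared gave 595 pairs. With each group of like cells counted once, the values for *Cela2a* were -0.80 over 61 vehicle cells and -0.63 over 77 FAKi cells, and those for *Ctrl* were -0.74 and -0.75.

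Per 3000 UMIs, thinned vehicle cells with under 4% *Clps* (26 cells) had a mean of 169 *Cela2a* UMIs, and those with at least 8% (29 cells) had 55.6. In the FAKi library the means were 144 over 33 cells and 50.3 over 44 cells. *Ctrl* was 0.464 times as high in the *Clps*-rich cells with vehicle and 0.463 times with FAKi, and *Cel* was 0.468 and 0.338 times as high. *Rnase1* was 1.62 and 1.89 times as high, and *Spink1* 1.69 and 2.23 times. The *Clps*-rich cells also had more detected genes (a median of 909 against 534 with vehicle and 1063.5 against 427 with FAKi) and more UMIs before thinning (9666 against 7139, and 11318 against 5359). Their ribosomal protein share was 5.41% against 2.85% with vehicle and 3.97% against 3.37% with FAKi. The part of depth in this pattern was not tested.

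**Figure D2:**
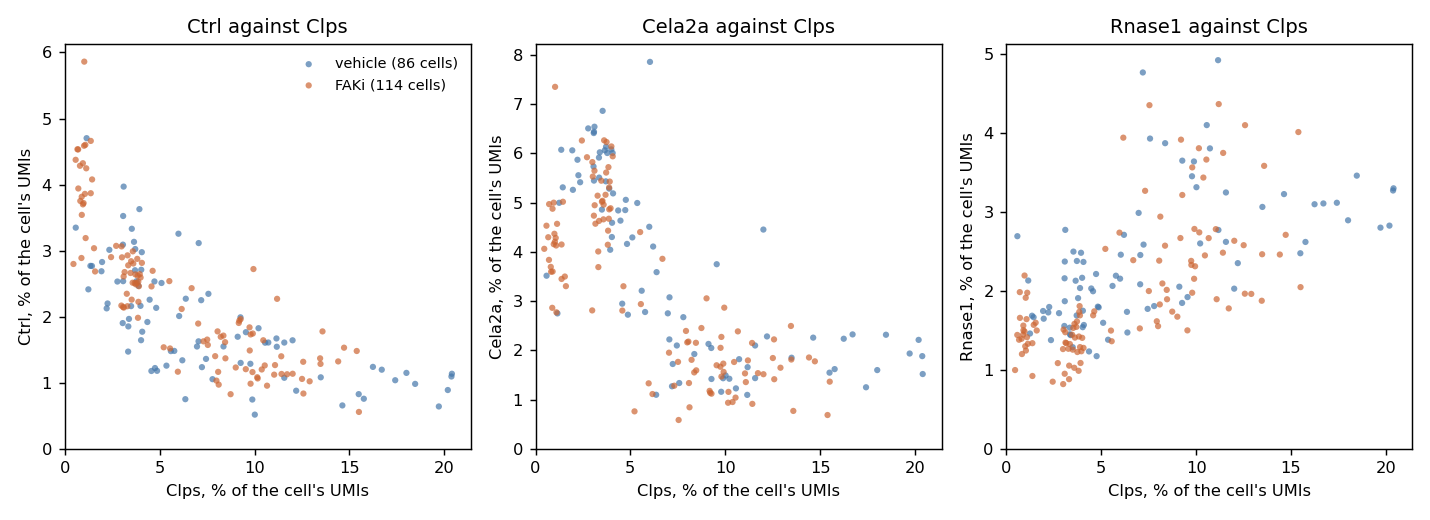
Each point is 1 of the 200 cells, placed by the percent of its UMIs from *Clps* (horizontal) and from *Ctrl*, *Cela2a* or *Rnase1* (vertical, left to right), with vehicle cells in blue and FAKi cells in orange. *Ctrl* and *Cela2a* are lower and *Rnase1* is higher in the cells with more *Clps*, and the *Clps* share runs from 0.460 to 20.4%.

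Between the libraries, most genes of the class with at least 100 UMIs had CPM within 1.5-fold. Over the 548 genes with at least 100 UMIs, the median log2 ratio of FAKi over vehicle was 0.06, with 311 genes above and 237 below equality. At least 1.5-fold higher in the FAKi library were 45 genes (8.21%), and at least 1.5-fold lower were 19 (3.47%). It was 50 higher and 48 lower with CPM averaged over cells, which gives every cell the same weight. With every cell thinned to 3000 UMIs it was 10 and 10, but then the 9 vehicle and 20 FAKi cells that were shallower were left out and only 171 genes still had at least 100 UMIs. For gene lists, members with at least 20 UMIs were used. The 2648 genes with that many had a median log2 ratio of 0.10, and 17.4% of them were at least 1.5-fold higher and 9.59% at least 1.5-fold lower, which is the background for the counts of list members.

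**Figure D3:**
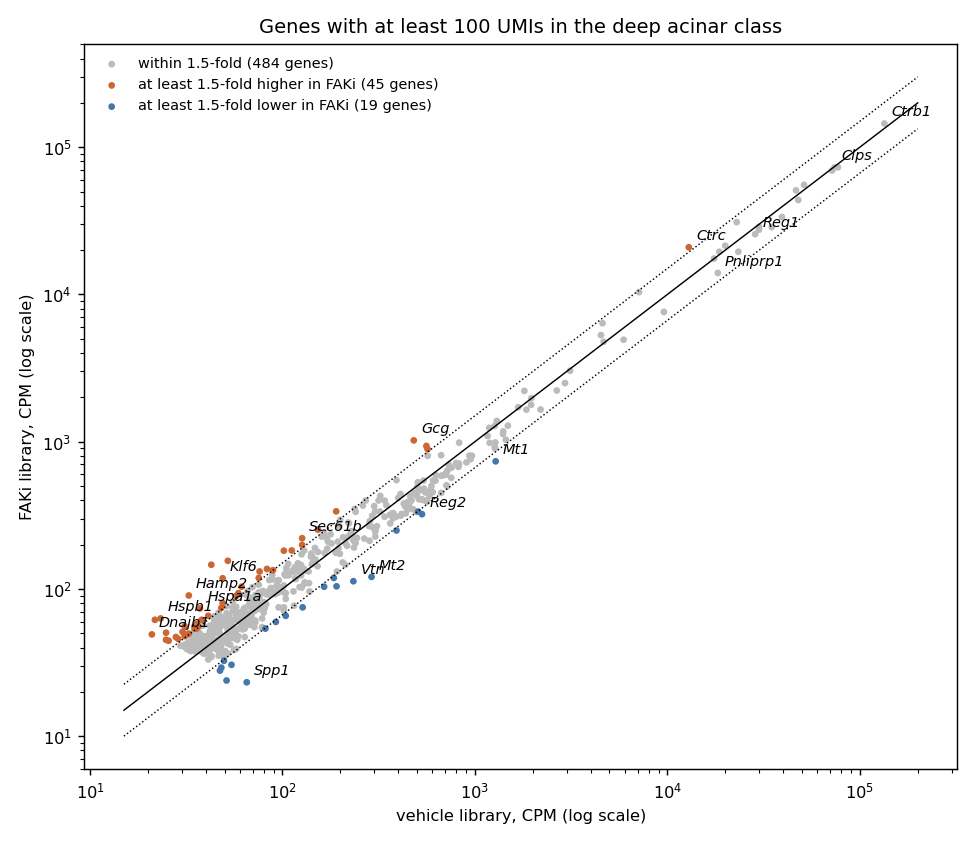
Each point is 1 of the 548 genes, placed by its CPM with vehicle (horizontal) and with FAKi (vertical), both on log scales. The solid line marks equality and the dotted lines 1.5-fold, past which lie 45 genes above and 19 below.

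The secretory products make up most of the total to which CPM are scaled, 71.4% and 70.7% for the enzymes alone, which holds their summed ratio near 1 by construction. Of 31 digestive enzyme genes 4 were at least 1.5-fold higher and 2 at least 1.5-fold lower, with a median log2 ratio of -0.05, and of 9 granule and inhibitor genes none was past 1.5-fold (median 0.03), beside 17.4% and 9.59% of all genes. In endothelial and immune cells the same genes had medians of 1.21 and 1.24, and by class that of the enzymes was 0.76 in endothelial cells, 2.72 in macrophages, 0.06 in T cells and 1.48 in B cells. By summed counts *Ctrc*, chymotrypsin C, which activates and degrades other zymogens, differed most among the abundant enzymes. It had 16650 UMIs with vehicle and 31524 with FAKi, or 12921 and 20911 CPM, a ratio of 1.62 (1.59 to 1.65). The difference was spread over the cells. *Ctrc* made up a median of 1.19% of a vehicle cell's UMIs (range 0.680 to 2.49%) and 1.94% of a FAKi cell's (0.692 to 3.19%), and 17 of 86 against 87 of 114 cells had more than 1.5%, so the ranges overlap. Counting like cells once gave 16 of 69 and 65 of 86. In the shallow acinar class, the other acinar class of the annotation, the ratio of *Ctrc* was 1.15, and in endothelial and immune cells it was 3.65. *Try5*, at 22909 and 30979 CPM, had a ratio of 1.35 (1.33 to 1.37), with the uncertainty of the trypsinogen genes. Its median share of a cell's UMIs was 1.66% with vehicle and 3.07% with FAKi, so by medians over cells it differed more than *Ctrc*. *Pnliprp1*, a lipase-related protein, stood at 18283 and 13997 CPM, a ratio of 0.766 (0.752 to 0.780). *Dmbt1*, a secreted scavenger protein, had a ratio of 0.712 (0.665 to 0.762), a log2 ratio of -0.49, which was 0.11 with CPM averaged over cells. *Prss3* (245 and 507 UMIs, ratio 1.77) and *Gm10334* (67 and 234, ratio 2.99) were higher in the FAKi library, but 1 cell held 27.6% of the *Prss3* and 49.6% of the *Gm10334* UMIs there.

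Over all cells, among lists with at least 6 members at 20 UMIs, the heat shock list had the median furthest from equality. These genes encode chaperones of the cytosol and nucleus that hold or refold damaged proteins. Of 17 genes 14 had at least 20 UMIs. All 14 had a ratio above 1, and 10 were at least 1.5-fold higher in the FAKi library, beside 17.4% of all genes. Their median log2 ratio was 0.80, against -0.05 for the same genes in endothelial and immune cells. *Hspb1*, a small heat shock protein, had 30 UMIs with vehicle and 95 with FAKi, a ratio of 2.71 (1.78 to 4.23). Its ratio in endothelial and immune cells together was 0.955, but these classes went apart, with 4.07 in macrophages, 0.942 in endothelial cells, 0.403 in T cells, and 82 and 0 UMIs in B cells. In δ-cells and α-cells it was 3.02 and 2.15, and in the shallow acinar class 0.807. *Dnajb1*, a co-chaperone of HSP70, had 27 and 74 UMIs, a ratio of 2.34 (1.49 to 3.79). *Hspa1a* and *Hspa1b*, inducible HSP70 genes between which reads may be split, had 48 and 111 and 32 and 76 UMIs, ratios of 1.98 (1.40 to 2.83) and 2.03 (1.33 to 3.17). Their ratios in endothelial and immune cells were 1.54 and 1.32. In the shallow acinar class *Dnajb1*, *Hspa1a* and *Hspa1b* had 1.08, 1.01 and 1.31. *Dnajb1* had a ratio above 1 in all 11 other classes (median 1.19). *Hspa1a* and *Hspa1b* did so in 10 of 11 each, with medians of 1.64 and 1.76. *Hspa8*, the constitutive member, had 220 and 283 UMIs and a ratio of 1.1 (0.919 to 1.32).

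These counts were low and spread over cells, and those of *Hspb1* and *Dnajb1* gave smaller ratios in cells with few genes. In cells with fewer than 1000 detected genes the log2 ratio was 0.57 for *Hspb1*, against 1.40 over all cells, and 0.38 for *Dnajb1*, against 1.19. Thinned to 3000 UMIs per cell, *Hspb1* had 0.62. *Hspb1* had a UMI in 23.3% of vehicle and 35.1% of FAKi cells, and its highest cell held 12.6% of its FAKi UMIs. *Hspb1*, *Dnajb1*, *Hspa1a* and *Hspa1b* stood below the level of the highest other class, *Hspb1* for example at 63.0 CPM in the FAKi library against 1353 CPM in endothelial cells. The median of the list was 0.76 over cells in which at least 1000 genes were detected and 0.35 over the rest. In the latter cells the Reg family stood higher, at 0.61. The heat shock median was 0.77 with each group of like cells counted once. By class, the median log2 ratio of the list was 0.41 in the shallow acinar class, 0.54 in δ-cells, 0.39 in α-cells and 0.14 in β-cells, and it lay between 0.02 and 0.09 in ductal cells, fibroblasts, pericytes, endothelial cells, macrophages and B cells and at -0.68 in T cells. The difference between classes was not tested. Islet hormone transcripts were also higher per cell in the FAKi library, at a median of 0.651% of a vehicle cell's UMIs and 1.49% of a FAKi cell's, and their part in the heat shock ratios was not tested.

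The word GAANNTTC, the core of the heat shock element that HSF1 binds, was found in 9 of the 12 heat shock promoters with an entry and in 9.04% of all promoters. It was also found in 6 of the 26 digestive enzyme promoters, most of them of amylase genes. This word was searched after the values were known. The promoters of 2 of the genes above are shown, with GAANNTTC words in capitals. *Hspb1* lies on the plus strand at chr5:135887669-135887918, with matches 117 and 97 bases before the start, and *Hspa1b* lies on the minus strand at chr17:34959239-34959488, with a match at 104 bases.
Hspb1: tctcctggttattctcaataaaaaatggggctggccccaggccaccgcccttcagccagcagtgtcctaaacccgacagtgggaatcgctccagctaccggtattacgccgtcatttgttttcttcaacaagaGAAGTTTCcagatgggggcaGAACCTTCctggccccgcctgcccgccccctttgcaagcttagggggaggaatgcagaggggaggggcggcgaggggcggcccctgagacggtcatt
Hspa1b: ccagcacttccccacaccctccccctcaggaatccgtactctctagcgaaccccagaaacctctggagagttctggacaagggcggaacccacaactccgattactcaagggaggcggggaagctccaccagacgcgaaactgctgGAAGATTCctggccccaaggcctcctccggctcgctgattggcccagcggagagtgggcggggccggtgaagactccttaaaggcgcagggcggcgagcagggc

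Genes of the ER had smaller ratios. Of all 2648 genes with at least 20 UMIs, 1567 had a ratio above 1. Of 30 ER folding genes with as many UMIs, 26 had a ratio above 1, 7 were at least 1.5-fold higher and 1 at least 1.5-fold lower, with a median log2 ratio of 0.26 against 0.17 in endothelial and immune cells. *Hsp90b1*, an HSP90 of the ER, had 144 UMIs with vehicle and 275 with FAKi, a ratio of 1.63 (1.33 to 2.01). *Hspa5*, which encodes BiP, the main HSP70 of the ER, had 306 and 527 UMIs, a ratio of 1.47 (1.28 to 1.70). *Prdx4*, an ER peroxiredoxin, had 163 and 300 UMIs, a ratio of 1.57 (1.30 to 1.92). The ratios of these 3 in endothelial and immune cells were 1.15, 0.980 and 1.16. The gene past 1.5-fold in the other direction was *Ppic*, a cyclophilin, with a ratio of 0.53. Of 33 genes for signal peptide recognition and the translocon 26 had a ratio above 1 and 6 were at least 1.5-fold higher, with a median of 0.22. *Sec61b*, a subunit of the translocon, had 163 and 333 UMIs, a ratio of 1.75 (1.44 to 2.12), but its ratio in endothelial and immune cells was 1.53, and its log2 ratio, 0.80 over all cells, was 0.084 in those with fewer than 1000 detected genes. Of 20 genes of ER stress and the integrated stress response 5 were at least 1.5-fold higher and none lower (median 0.27). *Nupr1*, a stress-induced nuclear protein and the most abundant of that list, had a ratio of 1.21 (1.11 to 1.33). The shares of members at least 1.5-fold higher in these 3 lists lay near the 17.4% of all genes and are no result about the lists.

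**Figure D4:**
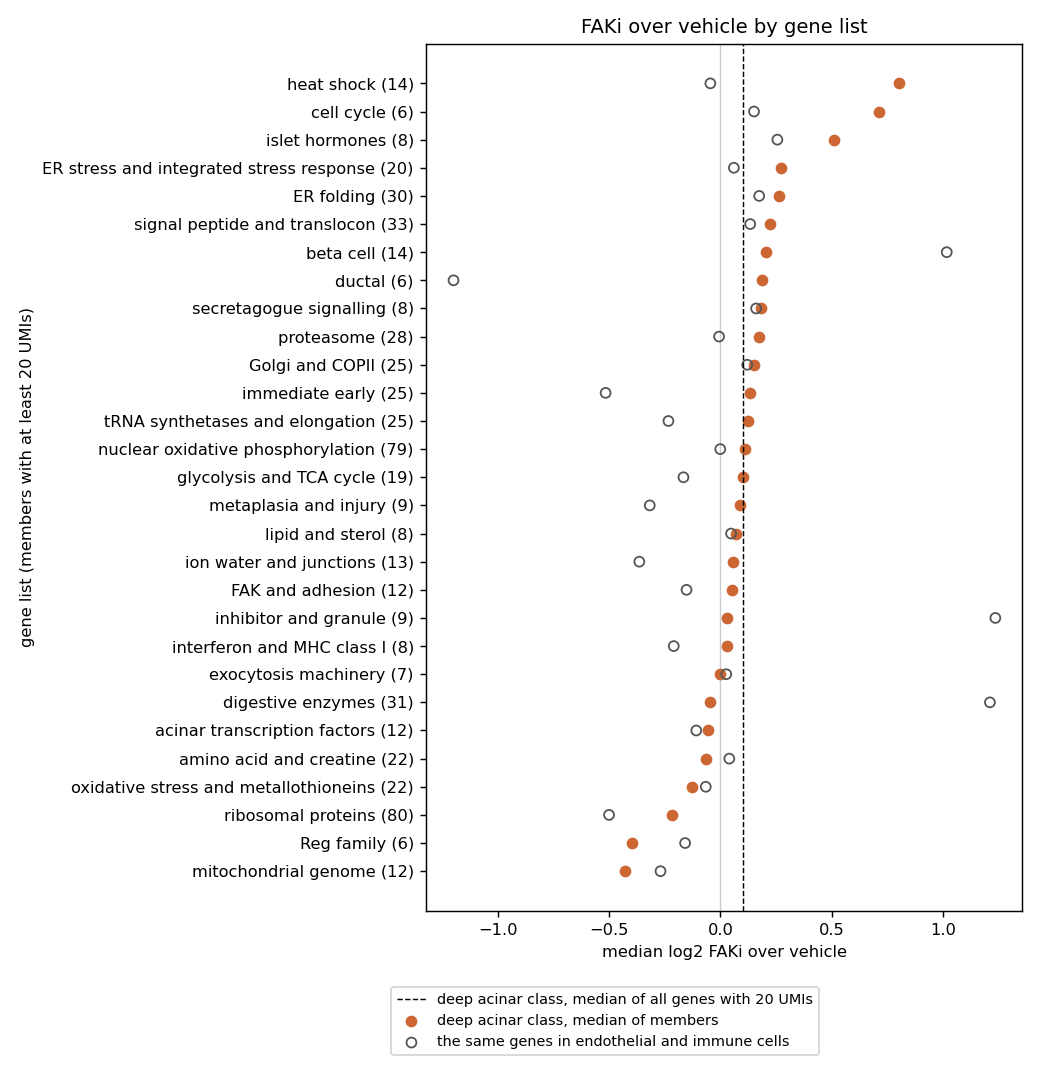
Filled points give the median log2 ratio of FAKi over vehicle in the deep acinar class for each list with at least 6 members at 20 UMIs, and open points the median of the same genes in endothelial and immune cells. The mix of the latter cells differed between the libraries. Heat shock lies highest at 0.80, ER lists lie at 0.22 to 0.27 and the mitochondrial genome lowest at -0.43, around the dashed line at 0.10 for all genes.

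The transcription factors and the receptor showed no common direction. Of 12 acinar transcription factors with at least 20 UMIs, 5 had a ratio above 1 and 7 below. Their median log2 ratio of -0.06 lay between -0.099 and 0.53 in the alternatives run, the highest with cells thinned and only 3 members left. *Rbpjl* had a ratio of 1.51 (1.04 to 2.21), *Bhlha15*, with 36 and 59 UMIs, 1.40 (0.910 to 2.18), and *Ptf1a* 1.08 (0.720 to 1.64). *Xbp1*, a factor of the secretory pathway, had a ratio of 0.834 (0.668 to 1.04). *Cckar* had a ratio of 1.34 (1.05 to 1.72). Only the intervals of *Rbpjl* and *Cckar* among these 5 exclude 1.

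Metallothioneins, which bind zinc and copper, were lower in the FAKi library. *Mt1* had 1651 UMIs with vehicle and 1109 with FAKi, or 1281 and 736 CPM, a ratio of 0.574 (0.532 to 0.6199). *Mt2* had 374 and 182 UMIs, or 290 and 121 CPM, a ratio of 0.416 (0.346 to 0.498). Most cells carried *Mt1*, 81 of 86 vehicle and 97 of 114 FAKi cells, and its median share of a cell's UMIs was 0.116% (quartiles 0.0716 and 0.166%) and 0.0576% (0.0246 and 0.0952%). The quartile ranges of the libraries overlap. The ratios of *Mt1* and *Mt2* were 0.652 and 0.433 in the shallow acinar class, 0.636 and 0.623 in β-cells and 0.575 and 0.565 in δ-cells, but 3.96 and 5.32 in T cells, so that endothelial and immune cells together had 0.962 and 1.21. The other 20 members of the list of oxidative stress genes had no common direction, with 9 above a ratio of 1 and a median log2 ratio of -0.06.

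**Figure D5:**
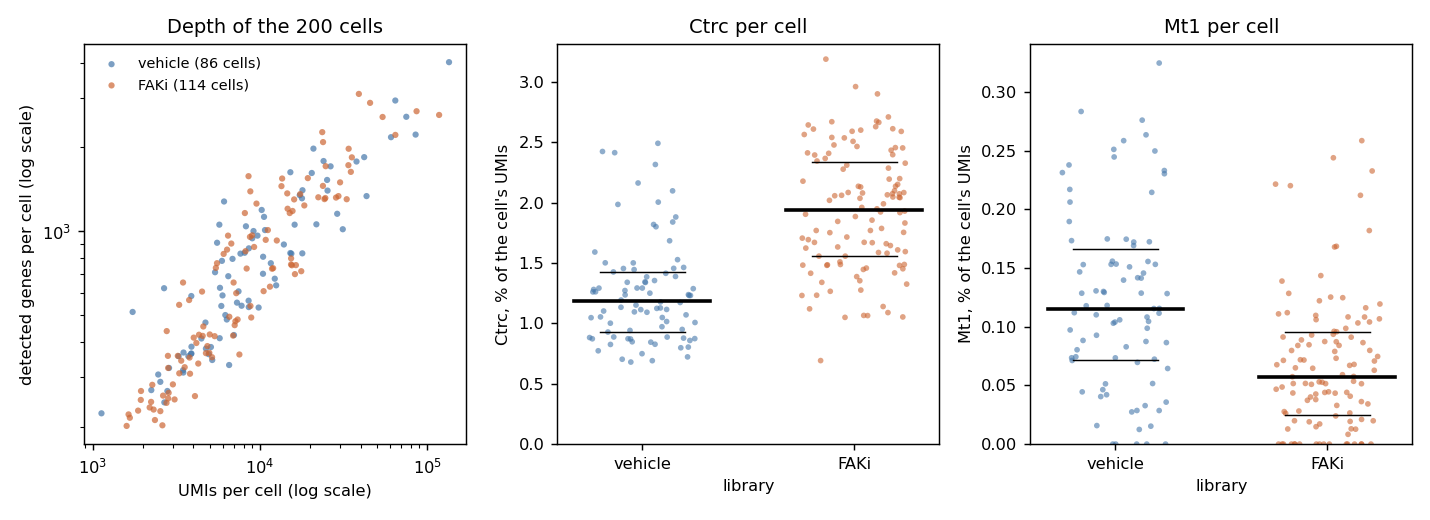
The left panel plots detected genes against UMIs for the 200 cells, both on log scales. The middle and right panels give *Ctrc* and *Mt1* as percent of each cell's UMIs by library, with a thick bar at the median and thin bars at the quartiles, and show medians of 1.19 and 1.94% for *Ctrc* and 0.116 and 0.0576% for *Mt1* with overlapping cells.

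Several genes outside the digestive enzyme list also differed, most of them for secreted proteins. *Vtn*, vitronectin, a protein of blood and matrix, had 301 UMIs with vehicle and 170 with FAKi, a ratio of 0.483 (0.398 to 0.585), and was found in 80.2% and 60.5% of the cells. Its ratio was 0.64 in the shallow acinar class and 1.04 in pericytes, where its level was highest. *Rnase4*, a secreted ribonuclease, had 246 and 157 UMIs, a ratio of 0.546 (0.444 to 0.669). *Igf1*, the growth factor, had 70 and 46 UMIs, a ratio of 0.562 (0.379 to 0.827), a log2 ratio of -0.81. In the alternatives run the log2 ratio of *Igf1* lay between -0.47 and -3.71, the latter from 16 UMIs in cells with fewer than 1000 detected genes. *Hamp2*, a hepcidin, went the other way with 42 and 136 UMIs, a ratio of 2.77 (1.95 to 4.01), and was found in 29.1% and 46.5% of the cells. *Hamp2* had 0 and 4 UMIs in endothelial and immune cells, and its ratio in the shallow acinar class, from 6 and 25 UMIs, was 2.0. *Lgals1*, galectin-1, had 40 and 84 UMIs, a ratio of 1.80 (1.22 to 2.69), against 0.587 in the shallow acinar class. *Pdcd4*, an inhibitor of translation, had 32 and 68 UMIs, a ratio of 1.82 (1.18 to 2.86), against 1.58 in the shallow acinar class and 0.459 in endothelial and immune cells.

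For other genes past 1.5-fold, the values in single cells or in the background stand beside the ratio. *Klf6*, an injury-induced transcription factor, had 63 and 178 UMIs, a ratio of 2.42 (1.80 to 3.27), but 1 cell held 39.7% of its vehicle and another 43.8% of its FAKi UMIs. In cells with fewer than 1000 detected genes the log2 ratio of *Klf6* turned from 1.26 to -0.15, and its ratio was 0.498 in the shallow acinar class and 0.701 in endothelial and immune cells. *Spp1*, osteopontin, abundant in ductal cells, had 84 and 35 UMIs, a ratio of 0.356 (0.233 to 0.534), with 40.5% of the vehicle UMIs in 1 cell and a ratio of 0.366 in endothelial and immune cells. *Chka*, choline kinase, had a ratio of 0.466, with 47.0% of its vehicle UMIs in 1 cell. *AY036118*, a transcript overlapping ribosomal RNA sequence, had the highest ratio, 3.42 (2.53 to 4.68), and 2.58 in endothelial and immune cells, and its log2 ratio was 1.75 over all cells and 0.78 over those with 1000 or more detected genes. *Gcg*, glucagon, had 620 and 1538 UMIs, a ratio of 2.12 (1.93 to 2.33), and *Sst*, somatostatin, 131 and 274 UMIs, a ratio of 1.79 (1.45 to 2.22). Both hormones stood far below their own classes, *Gcg* at 0.00203 times the level of α-cells with vehicle and 0.00382 times with FAKi. In endothelial and immune cells together the ratio was 0.941 for *Gcg* and 1.13 for *Sst*, but their classes went opposite ways. For *Gcg* it was 6.86 in endothelial cells and 13.0 in macrophages, against 0.0345 in T cells and 0.0354 in B cells. For *Sst* it was 29.6 in macrophages and 0.153 in endothelial cells. In the shallow acinar class the ratios were 3.34 and 2.0.

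Most ribosomal protein genes and all 12 genes of the mitochondrial genome with at least 20 UMIs had a ratio below 1. Of 80 ribosomal protein genes 8 had a ratio above 1, and 3 were at least 1.5-fold lower, a share under the 9.59% of all genes. Their median log2 ratio was -0.22. It was -0.25 in the shallow acinar class, -0.14 in endothelial cells, -0.085 in B cells, -0.024 in macrophages and -1.76 in T cells. *Rpl39* and *Rpl36a* were among the lowest, with ratios of 0.638 and 0.643, against 0.675 and 0.812 in the shallow acinar class, 0.713 and 0.825 in endothelial cells and 0.248 and 0.218 in T cells. Of the 12 mitochondrial genes 3 were at least 1.5-fold lower, with a median of -0.43. The median was 0.07 in the shallow acinar class, -0.19 in endothelial cells, -0.011 in macrophages, -0.57 in T cells and -0.80 in B cells, and in the alternatives run that of the deep class lay between -0.53 and -0.12. *mt-Nd3*, a subunit of complex I, had a ratio of 0.589 (0.459 to 0.753), and 0.585 in endothelial and immune cells. Of 79 nuclear genes of oxidative phosphorylation none was at least 1.5-fold higher and 2 were lower, with a median of 0.11, which was -0.14 with CPM averaged over cells.

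The Reg family, secreted proteins whose genes are induced in pancreatic injury, was the clearest case of a value set by single cells. *Reg1* had 36826 and 38660 UMIs, a ratio of 0.897 (0.885 to 0.910). *Reg2* had 684 and 485 UMIs, a ratio of 0.606 (0.538 to 0.682), and *Reg3b* had 247 and 198, a ratio of 0.685 (0.566 to 0.829). A vehicle cell of 24016 UMIs held 376 of the 684 *Reg2* UMIs (55.0%), and another held 134. A vehicle cell of 26454 UMIs held 167 of the 247 *Reg3b* UMIs (67.6%). Without the highest cell of each library *Reg2* stood at 244 CPM with vehicle and 300.5 with FAKi, and *Reg3b* at 63.4 and 126 CPM, so both ratios turned. More cells carried them in the FAKi library, 70 of 114 against 44 of 86 for *Reg2* and 54 of 114 against 32 of 86 for *Reg3b*. *Reg3d* had 158 and 155 UMIs, a ratio of 0.838 (0.668 to 1.05), *Reg3a* 23 and 15 UMIs and *Reg3g* 10 and 19.

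Cell cycle genes were rare. Both *Mki67* and *Top2a*, which are expressed in dividing cells, were found in 4 of 114 FAKi cells (3.51%, Clopper-Pearson 95% interval 0.964 to 8.74%) and in 0 of 86 vehicle cells (0 to 4.20%). A floor of 3 counts puts the vehicle limit at 3.49%. These limits are for cells with a UMI of both genes and cover counting error only. The 4 cells had 19333 to 54146 UMIs, took 64.3 to 70.5% of them from digestive enzymes and held 0 or 1 UMI of the 20 immune markers, and none was lost when like cells were counted once. *Birc5*, which acts in cell division, had 25 UMIs in 5 FAKi cells and 0 UMIs in the vehicle library, whose floor is 3 UMIs over the class. The same pair of genes was found in 12 of 168 and 11 of 28 T cells, in 6 of 129 and 0 of 55 macrophages, in 1 of 498 and 2 of 156 ductal cells, and in at most 1 cell per library of each other class. Of 6 cell cycle genes with at least 20 UMIs 4 were at least 1.5-fold higher in the FAKi library, beside 17.4% of all genes. At least 1.5-fold lower was 1 of the 6, beside 9.59% of all genes. The median log2 ratio of the 6 was 0.71. These ratios lean on the same 4 cells, which held 218 of the 446 FAKi UMIs of the list of 25 genes. Summed over the list, the ratio was 1.93 (1.63 to 2.29) with them and 1.08 (0.891 to 1.32) without them.

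Against the shallow acinar class, the deep class held more of its characteristic genes per UMI. That class has 458 cells. The median log2 ratio of deep over shallow was 0.62 with vehicle and 0.89 with FAKi for digestive enzymes, 0.72 and 1.02 for granule and inhibitor genes and 0.91 and 2.08 for the Reg family. *Reg1*, the first marker, stood at 12607 and 8675 CPM in the shallow class. Among lists with at least 6 members at 20 UMIs, the medians lay lowest for islet hormones (-3.47 and -3.54) and β-cell genes (-3.33 and -3.17). Heat shock genes (-1.69 and -1.25) and the mitochondrial genome (-1.53 and -1.98) came next. The medians over the 2648 genes with at least 20 UMIs were -0.56 and -0.52, and those over the 548 genes were -0.28 and -0.20. The classes differ in depth as well as in their genes, and the part of free RNA in these values was not tested.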

How the data were processed

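Droplet-based scRNA-seq (10x 3′ chemistry v3.1) was run by the authors on pooled islets, 1 library per condition, and UMIs were counted with Cell Ranger on mm10. The deposited counts are raw UMI counts of 19945 genes per cell. The authors' Seurat 3.1 (per the submitters' processing notes), SCRAN and scanorama steps gave the deposited clusters and classes but do not alter the counts. The deposited percent of mitochondrial UMIs per cell was computed by the authors, who removed cells at or above 8%.

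The 8 samples were read as 4 lanes of each of 2 libraries. UMIs were summed over the 200 annotated cells of the class per library and divided by the total (CPM). Ratios carry exact conditional binomial 95% intervals and shares of cells Clopper-Pearson intervals, both for counting error only. Log2 ratios add 1 CPM. No test across samples was possible. Genes with at least 100 UMIs were compared, and list members with at least 20. The background was the sum of the endothelial, macrophage, T and B cell classes. Thinning drew 3000 UMIs per cell. Named genes were the 20 furthest above the other classes, the 15 highest and 15 lowest ratios whose interval excludes 1, the most abundant and most extreme members of each list with at least 50 UMIs, the markers, acinar transcription factors, hormones and Reg genes, and the 10 highest Fano factors. Other genes (*Birc5*, *Mki67*, *Top2a*, *Hspa5*, *Prdx4*, *Gal*, the most abundant genes and those correlated with *Clps*) and the comparison of cells in pairs were chosen after values were seen. Members and lists were chosen with earlier results of these data known. Intervals, thinning and the pair comparison were tested on simulated data. Scripts ran in Python 3.11.15 with Scanpy 1.11.5, SciPy 1.17.1, NumPy 2.4.6, pandas 2.3.3 and Matplotlib 3.10.9. Columns of per-sample values left unused numbered 0.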

Additional observations from a re-analysis of the deposited data

Results flagged for a closer look

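*Pdcd4* and *Vtn* went opposite ways in the class and in endothelial and immune cells, which is what drew attention to them. The ratio of FAKi over vehicle of *Pdcd4* was 1.82 in the class, 1.58 in the shallow acinar class and 0.459 in endothelial and immune cells, where T cells had the highest level in the vehicle library. The ratio of *Vtn* was 0.483 in the class and 3.13 in endothelial and immune cells, the latter from only 19 and 24 UMIs. T cells numbered 168 with vehicle and 28 with FAKi, so the summed ratio of *Pdcd4* also depends on the mix of classes. With 1 library per condition the difference was not tested.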

How the results depend on the processing

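The count of genes at least 4-fold above every non-acinar class was 56 and lay between 40 and 79 in all alternatives run. The counts of 45 genes higher and 19 lower in the FAKi library changed by over 1.5 times in these settings: 48 lower with CPM taken per cell and averaged, 18 higher in cells with fewer than 1000 detected genes, 10 higher and 10 lower with cells thinned to 3000 UMIs, 461 higher and 254 lower with genes of at least 20 UMIs, 6 and 5 with genes of at least 500 UMIs, 5 and 4 with genes at least 5 times the UMIs per cell of the background, 9 and 4 at a fold of 2, and 8 lower without each gene's highest cell. Fewer or more genes enter several of these by construction. The last setting, leaving out the deepest cell of each library, and counting each group of like cells once (45 higher, 18 lower) were added after seeing the data.

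The Reg family median turned from -0.40 to 0.16 with averaged per-cell CPM, 0.61 in cells with fewer than 1000 detected genes and 0.24 without each gene's highest cell. *Reg2* turned to 0.82 and 0.24 in the latter 2 settings (the last keeps the class totals, whereas the CPM of the Reg genes in the report also leave out the total of that cell), *Reg3a* to 0.80, 2.07 and 0.31 in these 3 and 2.06 after thinning, and *Reg3g* to -1.48 in the cells of 1000 or more detected genes. The digestive enzyme median turned from -0.05 to 0.050 and *Klf6* to -0.15, *H2afz* to -0.015 and *Ccnd2* to -0.018 in cells with fewer than 1000 detected genes. *Reg3b*, which was within 1.5-fold at first (-0.54), ran from -1.32 to 1.40 and is counted among the values that moved. *Psma3* turned to -0.024 after thinning and *Ndufv1* to 0.24 with averaged per-cell CPM. The cause was not tested. Of 339 list medians under alternatives 46, from 18 of 30 lists, had the other sign than at first. For 4 of the 46, those of the Reg and enzyme lists above, the first median lay away from 0 beyond counting error. Of 1410 values of single genes 125, from 64 of 141 genes, had the other sign, 12 of them for genes first past 1.5-fold. Apart from these called turns, 7 list medians and 232 values of single genes lay outside the counting interval of the first value. No paired analysis was possible because there is 1 library per condition, and leaving out a replicate was not possible either. Depth limits the text to genes with at least 20 UMIs in 200 cells.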
